A study of Mus musculus with 12 samples.

Results

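The cerebral cortex and the cerebellum of a mouse were set against each other on 1 standard array each, and 119 of 12422 probe sets lay at least 1 log2 unit apart with a signal of 5 or more in the higher region. A probe set is the group of short probes that reports a transcript on the array. These 119 members reported 99 named genes. Of the members, 52 were higher in cortex (46 genes) and 67 were higher in cerebellum (53 genes), which was 0.419% and 0.539% of all probe sets tested. Those shares follow from the rule that chose the members, so the 1X differences below are a description and carry no test. Differences are given as cortex minus cerebellum on the log2 scale, so that a negative value marks a higher signal in cerebellum.

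All tissue came from 1 adult mouse of the NMR-1 strain, with no genetic change or treatment given in the labels. Liver, cortex and cerebellum were each measured on 1 array by the standard Affymetrix protocol, with 5 µg RNA and 1 linear amplification (1X), and on 3 arrays by a procedure for 1 ng RNA with 3 linear amplifications (3X). The 3X arrays are technical replicates, so their spread and every p-value below cover repeated processing of this animal's RNA and not other mice. Input, amplification kit and number of amplifications differed together between 1X and 3X. The labels name no part of the cortex and no lobule or layer of the cerebellum, and bulk RNA cannot tell fewer cells of a type from less RNA per cell.

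The cortex is built mainly of excitatory pyramidal neurons, whose dendritic spines are rich in calcium-dependent kinases and phosphatases, and of inhibitory interneurons, many of which release neuropeptides. In the cerebellum, very numerous small granule cells feed Purkinje cells, the inhibitory output neurons of its cortex, which are ensheathed by Bergmann glia. The core of the cerebellum is white matter, in which oligodendrocytes wrap axons in myelin.

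Promoter sequences are shown for the genes that carry the contrast: the 3 genes in each direction with the largest 1X difference that were also called on the 3X arrays and had an entry in the RefSeq promoter table, and Gabra6 and Zic1, which were added after their values were seen because they are classical granule cell genes. Each run covers 250 bases before and 50 bases after an annotated start in RefSeq, assembly GRCm38.p6. The places are chr9:121495645-121495944 (Cck, minus strand), chr16:34513978-34514277 (Kalrn, minus strand), chr4:129121698-129121997 (Hpca, minus strand, the first of 3 starts), chr11:42321023-42321322 (Gabra6, minus strand), chr9:91365719-91366018 (Zic1, minus strand), chr11:54902604-54902903 (Gpx3, plus strand), chr15:89334223-89334522 (Miox, plus strand) and chr6:133853618-133853917 (Kap, minus strand). Capitals mark exact matches, on either strand, to any of 9 short motifs. These were the TATA box (TATAAA), the GC box bound by Sp1 (GGGCGG), and 3 E-boxes bound by neuronal helix-loop-helix factors, with the centre GC (CAGCTG), the centre GA, which NeuroD proteins prefer (CAGATG), or the centre TA (CATATG). The others were the cyclic AMP response element (TGACGTCA), the site of EGR factors (GCGTGGGCG), the Zic site (CAGCAGG) and a half-site of the hepatic and renal factor HNF1 (GTTAAT). No motif overlapped another in the windows shown.
Cck: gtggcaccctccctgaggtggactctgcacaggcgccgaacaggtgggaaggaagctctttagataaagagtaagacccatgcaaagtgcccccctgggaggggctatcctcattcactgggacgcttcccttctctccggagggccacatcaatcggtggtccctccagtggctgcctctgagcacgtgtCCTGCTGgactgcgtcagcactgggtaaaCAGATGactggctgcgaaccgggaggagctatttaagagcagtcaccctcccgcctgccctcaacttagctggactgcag
Kalrn: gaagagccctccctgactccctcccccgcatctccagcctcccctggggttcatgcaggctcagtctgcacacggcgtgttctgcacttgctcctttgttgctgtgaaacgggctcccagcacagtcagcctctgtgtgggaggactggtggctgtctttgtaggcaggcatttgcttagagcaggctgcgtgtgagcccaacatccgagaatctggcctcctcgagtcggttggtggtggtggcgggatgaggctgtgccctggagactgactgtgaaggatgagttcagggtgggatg
Hpca: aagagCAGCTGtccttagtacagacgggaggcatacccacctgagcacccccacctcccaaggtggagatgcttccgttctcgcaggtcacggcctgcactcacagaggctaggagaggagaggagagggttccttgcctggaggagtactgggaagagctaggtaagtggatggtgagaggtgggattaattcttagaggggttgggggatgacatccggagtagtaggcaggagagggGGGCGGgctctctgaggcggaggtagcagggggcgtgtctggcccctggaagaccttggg
Gabra6: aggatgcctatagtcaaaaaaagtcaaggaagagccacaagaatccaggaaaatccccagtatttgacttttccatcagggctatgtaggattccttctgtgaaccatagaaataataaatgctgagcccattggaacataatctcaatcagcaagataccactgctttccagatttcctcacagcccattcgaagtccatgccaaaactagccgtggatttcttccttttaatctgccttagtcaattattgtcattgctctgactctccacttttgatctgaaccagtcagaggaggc
Zic1: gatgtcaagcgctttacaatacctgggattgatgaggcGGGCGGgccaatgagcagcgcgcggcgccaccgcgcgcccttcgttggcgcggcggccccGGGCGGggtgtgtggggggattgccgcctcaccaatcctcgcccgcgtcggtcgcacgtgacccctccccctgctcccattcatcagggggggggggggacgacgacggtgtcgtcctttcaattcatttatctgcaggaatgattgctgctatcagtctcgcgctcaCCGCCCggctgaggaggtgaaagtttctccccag
Gpx3: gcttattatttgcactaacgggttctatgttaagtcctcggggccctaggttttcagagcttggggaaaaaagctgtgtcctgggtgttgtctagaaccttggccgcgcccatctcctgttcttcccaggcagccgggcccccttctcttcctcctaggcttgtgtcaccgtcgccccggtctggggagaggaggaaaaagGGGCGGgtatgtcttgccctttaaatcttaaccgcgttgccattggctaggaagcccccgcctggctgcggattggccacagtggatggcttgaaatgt
Miox: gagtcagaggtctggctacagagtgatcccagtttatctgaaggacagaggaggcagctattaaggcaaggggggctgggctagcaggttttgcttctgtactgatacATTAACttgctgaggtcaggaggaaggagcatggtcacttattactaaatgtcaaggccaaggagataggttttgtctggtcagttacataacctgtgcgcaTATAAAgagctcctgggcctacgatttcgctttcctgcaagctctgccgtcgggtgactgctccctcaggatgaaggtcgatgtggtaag
Kap: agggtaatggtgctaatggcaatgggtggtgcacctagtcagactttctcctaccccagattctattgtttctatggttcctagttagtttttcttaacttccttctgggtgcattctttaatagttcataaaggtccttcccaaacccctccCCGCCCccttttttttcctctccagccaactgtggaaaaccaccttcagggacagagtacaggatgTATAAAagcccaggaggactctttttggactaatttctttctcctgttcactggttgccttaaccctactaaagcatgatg

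Kap and Miox, both genes of the renal proximal tubule, held a TATA box, 31 and 40 bases before the start, and Miox also held the HNF1 half-site, 142 bases before it. Cck held the E-box CAGATG 30 bases before its start and the Zic site 59 bases before it. Zic1 held 3 GC boxes, Gpx3 held 1 and no motif of the 9 was found in the Kalrn and Gabra6 windows. Over the 71 of 99 member genes with a promoter in the table, the GC box was found in 75% of the 32 genes higher in cortex and in 53.8% of the 39 genes higher in cerebellum, against 59.3% of the promoters of 6572 genes on the array. The cyclic AMP response element stood in 3 genes of each direction, 9.38% and 7.69%, against 2.88% on the array. The TATA box stood in 12.5% and 5.13%, against 10.4%. The other 6 motifs were held by at most 7 member promoters in a direction. Of those named above, the E-box CAGATG stood in 15.6% and 17.9%, against 12.3% on the array. The Zic site stood in 15.6% and 12.8%, against 10.6%, and the HNF1 half-site in 0% and 2.56%, against 4.88%. A match says only that the letters stand in the window.

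The labelled regions were checked against genes that define them. Of 9 cortical markers, 6 were measured by 7 probe sets, all 7 of them higher in cortex at 1X, and 4 passed the 3X test. All 7 had a 1X signal below 5 or a difference below 1, so none was a member. Of 15 probe sets for 11 cerebellar markers, 14 were higher in cerebellum at 1X and 9 passed the 3X test, and Gabra6, Zic1 and Pvalb supplied 4 members. The exception was a Zic2 probe set, at 6.08 in cortex and 5.90 in cerebellum. Over all 12422 probe sets, 7275 were higher in cortex and 5147 higher in cerebellum at 1X. Of all probe sets, 0.435% passed the 3X test as higher in cortex and 0.628% as higher in cerebellum. The median signal of the 12 arrays lay between 3.45 and 3.48. Both 1X arrays resembled each other closely: the median absolute difference was 0.10 over all probe sets and 1.53 over the members.

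**Figure D1:**
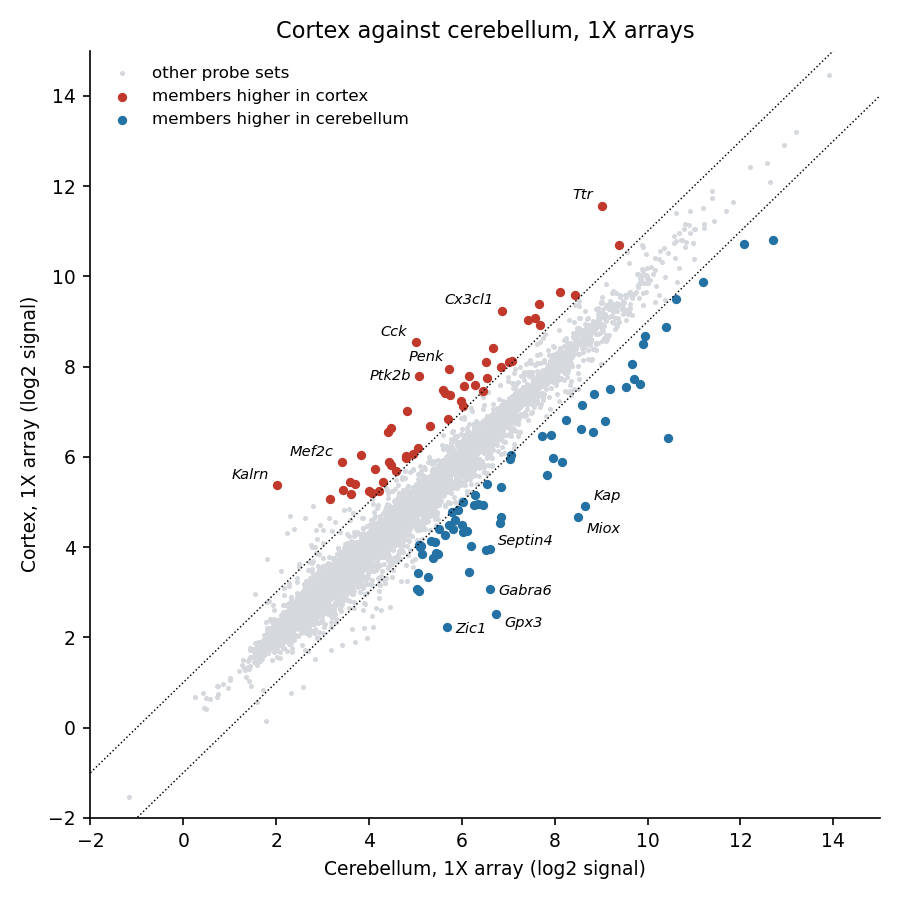
Signal on the 1X cortex array against the 1X cerebellum array for 12422 probe sets (log2, 1 array each); dotted lines stand 1 unit either side of equality. The 52 members higher in cortex (red) and the 67 higher in cerebellum (blue) lie outside the lines with 5 or more in the higher region, from Kalrn and Cck above to Gpx3 and Zic1 below.

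The 3X arrays, which had no part in choosing the members, gave the same direction for most of them. In a limma fit of the 9 3X arrays, 54 probe sets were called higher in cortex (0.435% of 12422) and 78 higher in cerebellum (0.628%) at an adjusted p under 0.05. Among the members, 19 of 52 were called higher in cortex (36.5%) and 26 of 67 higher in cerebellum (38.8%), and none was called the opposite way. The 3 arrays of a region lay wholly above those of the other in the 1X direction for 36 and 44 members, against 7.87% and 8.56% of all probe sets. The sign was the same for 112 of 119 members, against 62.4% of all probe sets. The count of calls depended on the arrays in the fit: without liver replicate 3 there were 250 calls, 25 and 33 of them members in the 1X direction, and without cerebellum replicate 2 there were 82, with 13 and 22 members.

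Differences were smaller at 3X than at 1X for 113 of 119 members, with a median of 0.53 for those higher in cortex and -0.54 for those higher in cerebellum. The members were chosen for their 1X values, so this is a description, and the change in size was not tested. The 6 exceptions were Kalrn, Ptk2b, Ppp3r1 and Ppp3ca in cortex, and Fbp1 and a probe set without a single gene symbol in cerebellum. At 3X, 31 members still differed by at least 1 log2 unit, 11 higher in cortex and 20 higher in cerebellum.

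**Figure D2:**
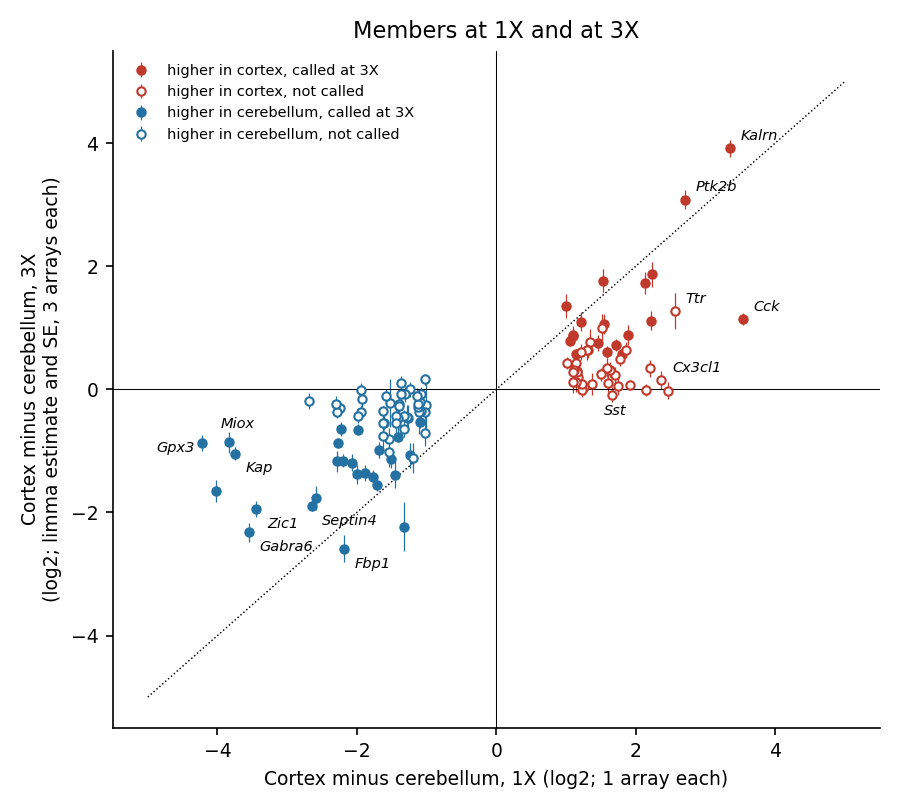
Cortex minus cerebellum for the 119 members at 1X (1 array each) and at 3X (limma estimate and SE, 3 arrays each), both on the log2 scale; filled points were called at 3X and the dotted line marks equal differences. Most points lie between the line and 0, while Kalrn, Ptk2b and Fbp1 lie beyond the line and Sst and Cx3cl1 lie near 0 at 3X.

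Among the members higher in cortex, genes of calcium signalling at dendritic spines supplied all 4 whose difference was larger at 3X than at 1X. The list of spine and calcium signalling genes had 33 probe sets, of which 7 were members, all higher in cortex, and 6 of these were called at 3X. Its median 1X difference was 0.44, against 0.03 over all probe sets. The 1X signal of Kalrn, a guanine nucleotide exchange factor that enlarges spines, was 5.37 in cortex and 2.02 in cerebellum. On the 3X arrays Kalrn read 6.33, 5.92 and 6.56 in cortex against 2.37, 2.34 and 2.36 in cerebellum. The cerebellar values were low and nearly equal, and the groups were far apart, by 3.92 ± 0.14 (SE, 3 arrays each; limma adjusted p = 3.26e-07). A second Kalrn probe set showed no such gap: it read 3.996 and 4.028 at 1X and differed by 0.05 ± 0.09 at 3X (limma adjusted p = 0.97).

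Ptk2b, a tyrosine kinase switched on by calcium, read 7.78 in cortex and 5.08 in cerebellum at 1X, a ratio of 6.51. Its 3X signals were 8.62, 8.56 and 9.03 in cortex against 5.52, 5.78 and 5.67 in cerebellum, and differed by 3.08 ± 0.16 (limma adjusted p = 5.46e-06). Hpca encodes hippocalcin, a neuronal calcium sensor. It read 6.03 and 3.82 at 1X, and 5.15, 5.09 and 4.92 against 4.13, 3.90 and 3.79 at 3X, a difference of 1.11 ± 0.15 (limma adjusted p = 0.00502).

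Both subunits of calcineurin, the phosphatase activated by calcium and calmodulin, were members. The regulatory subunit Ppp3r1 read 9.64 and 8.11 at 1X, and 7.78, 7.30 and 7.30 in cortex against 5.61, 6.08 and 5.39 in cerebellum at 3X (1.76 ± 0.18, limma adjusted p = 0.00089). The catalytic subunit Ppp3ca, at a 1X difference of 1.00 the member nearest to the threshold on the cortical side, differed by 1.35 ± 0.19 at 3X (limma adjusted p = 0.0055). Neither subunit's 3X arrays overlapped between the regions. Prkcb, a calcium-dependent protein kinase C, differed by 1.10 at 1X and by 0.88 ± 0.15 at 3X. Its limma adjusted p of 0.0206 became 0.123, 0.100 and 0.0811 without cortex replicate 1, cortex replicate 3 and cerebellum replicate 2. Baiap2, an actin regulator of the postsynaptic density, differed by 1.35 at 1X and by 0.78 ± 0.20 at 3X, and was not called (limma adjusted p = 0.136). It was called without liver replicate 3 (adjusted p = 0.0377).

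Of 38 probe sets for neuropeptides and granins, 5 were members, all higher in cortex: Cck, Penk, Npy, Sst and Tac1. The list as a whole did not share this direction, with 22 probe sets higher in cortex, 16 higher in cerebellum and a median 1X difference of 0.02. Over all probe sets, 41.4% were higher in cerebellum at 1X and the median was 0.03. Of the 5 members, Cck and Penk were called at 3X. Cck, the precursor of cholecystokinin, had the largest 1X difference of any member higher in cortex, with 8.54 in cortex and 5.01 in cerebellum, a ratio of 11.6. Its 3X signals were 5.73, 5.52 and 5.70 against 4.43, 4.61 and 4.49. The regions did not overlap, but the 3X difference of 1.14 ± 0.10 (limma adjusted p = 0.00039) was well below that at 1X.

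Penk, the precursor of enkephalins, read 7.95 and 5.71 at 1X, and 6.05, 5.12 and 5.79 in cortex against 3.65, 3.77 and 3.93 in cerebellum at 3X (1.87 ± 0.20, limma adjusted p = 0.00103). Somatostatin, Sst, a peptide of cortical interneurons, read 7.80 and 6.14 at 1X. At 3X it read 3.14, 3.27 and 3.35 in cortex against 3.32, 3.52 and 3.19 in cerebellum, so that the regions overlapped at a low signal and differed by -0.09 ± 0.13 (limma adjusted p = 0.966). Npy, neuropeptide Y, differed by 1.78 at 1X and by 0.49 ± 0.12 at 3X, where its arrays did not overlap (limma adjusted p = 0.0921, and 0.049 without liver replicate 3). Tac1, the substance P precursor, differed by 1.15 and 0.28 ± 0.12 (limma adjusted p = 0.545).

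The wider list of forebrain and cortical neuron genes held 20 of the 52 members higher in cortex and no member higher in cerebellum, in 66 probe sets with a median 1X difference of 0.63. Of these 20 members, 9 were called at 3X, where 19 of all 52 members higher in cortex were called. The 20 include spine and peptide genes above, since the lists share genes. Olfm1, a secreted synaptic glycoprotein, read 6.54 and 4.41 at 1X, and 5.95, 5.25 and 5.80 in cortex against 4.09, 3.90 and 3.80 in cerebellum at 3X (1.73 ± 0.18, limma adjusted p = 0.000734). Penk, Tac1 and the phosphodiesterase Pde1b also belong to the striatal list, which had 3 members in 11 probe sets. Pde1b read 9.39 and 7.66 at 1X and differed by 0.72 ± 0.10 at 3X (limma adjusted p = 0.00407). All 11 probe sets of that list were higher in cortex at 1X, with a median difference of 0.52 against 0.03 over all probe sets. Of 5 striatal markers, 3 were measured by 5 probe sets, all higher in cortex at 1X, and 1 of these, of Penk, passed the 3X test. Drd2, a dopamine receptor, was at 3.72 in cortex and 3.38 in cerebellum at 1X. Rgs9, a striatal signalling regulator, was at 2.11 in cortex and 2.08 in cerebellum. The share of any striatal tissue in the cortex sample was not tested.

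Several members with a wide gap at 1X showed none at 3X. The transcription factor Mef2c, which shapes cortical synapses, was reported by 2 members. The larger, at 5.88 in cortex and 3.41 in cerebellum, read 3.86, 3.56 and 3.82 against 3.65, 4.07 and 3.59 at 3X. These groups overlapped. A further Mef2c probe set below the level of 5 (4.05 and 2.76 at 1X) did pass the 3X test, with a difference of 1.43 ± 0.14 (limma adjusted p = 0.000695). Cx3cl1, the neuronal chemokine that signals to microglia, read 9.24 and 6.87 at 1X, and 4.46, 4.39 and 4.21 against 4.32, 4.35 and 3.97 at 3X. Its 3X signal lay more than 2 units below that at 1X in both regions, and the regions overlapped. The same held for Arf3, a small GTPase of the Golgi, with 8.42 and 6.68 at 1X and a 3X difference of 0.05 ± 0.15. Plk2, the only member among 44 probe sets of immediate early genes, and Arf3 and Cx3cl1 had limma adjusted p-values of 0.995, 0.989 and 0.912.

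Genes of general synaptic function were split between the regions. Of 54 pan-neuronal and synaptic probe sets, 3 were members higher in cortex and 3 higher in cerebellum, with a median 1X difference of 0.05. On the cortical side stood Stx1a, a syntaxin of the vesicle fusion machinery (1X 1.60, 3X 0.10 ± 0.14), Syt1, the calcium sensor of fast transmitter release (1.30 and 0.64 ± 0.16), and Basp1, a growth cone protein (1.21 and 1.10 ± 0.15). Only Basp1 was called (limma adjusted p = 0.00428). On the cerebellar side stood the vesicle protein Vamp1 and the neurofilament subunits Nefh and Nefm. The glutamate receptor list had 1 member, the AMPA receptor subunit Gria2, with 7.57 and 6.04 at 1X. Its 3X arrays did not overlap and differed by 0.99 ± 0.24 (limma adjusted p = 0.109). Without cortex replicate 2 that p was 0.0282. Another Gria2 probe set, only 0.30 apart at 1X (6.29 and 5.99), was called at 3X (0.98 ± 0.17, limma adjusted p = 0.0197), and so was the mean of the gene's probe sets (adjusted p = 0.0322).

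**Figure D3:**
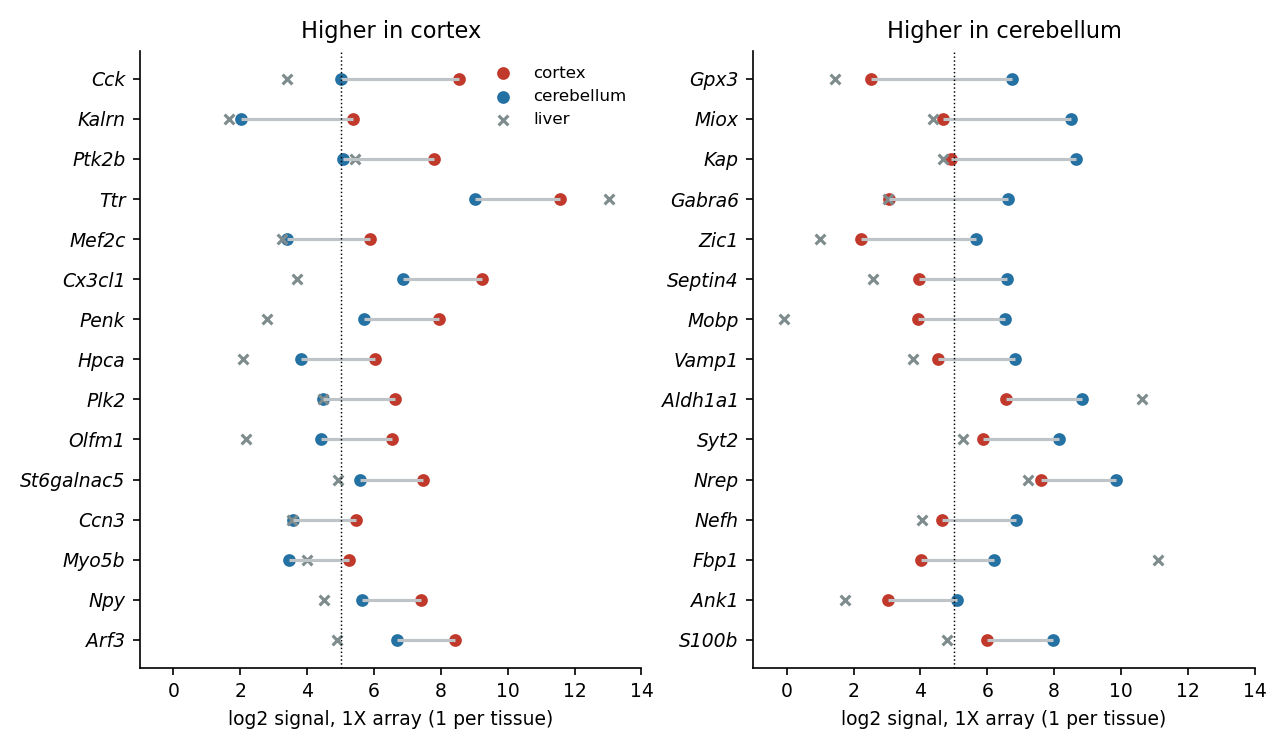
Log2 signal on the 1X arrays of cortex, cerebellum and liver (1 array per tissue) for the 15 named genes with the largest difference in each direction; the dotted line marks the level of 5 asked of the higher region. Liver lies above both brain regions for Ttr, Aldh1a1 and Fbp1 and at or below the lower region for most other genes.

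In the cerebellum, Gabra6 and Zic1 gave the largest differences outside the kidney genes and a probe set without a gene symbol. Gabra6 encodes the alpha6 subunit of the GABA-A receptor, made almost only by cerebellar granule cells. Its leading probe set read 3.07 in cortex and 6.61 in cerebellum at 1X, and 3.07, 3.07 and 3.14 against 5.17, 5.82 and 5.27 at 3X. The cortical signal was as low as that of liver (3.02 at 1X), and the regions differed by -2.33 ± 0.15 at 3X (limma adjusted p = 3.19e-05). The other Gabra6 probe set differed by -2.69 at 1X but by only -0.19 ± 0.13 at 3X, with overlapping arrays (limma adjusted p = 0.789). Zic1, a zinc finger transcription factor of the granule lineage, read 2.23 and 5.67 at 1X, and 2.18, 2.02 and 2.18 against 4.23, 4.22 and 3.75 at 3X (-1.94 ± 0.13, limma adjusted p = 4.97e-05). All 3 cerebellar arrays were above every cortical one.

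Nrep, a small neuronal protein on the granule lineage list, was bright in both regions, at 7.61 and 9.84 at 1X. Its 3X arrays read 7.15, 6.83 and 6.95 against 7.63, 7.57 and 7.65, a narrower gap of -0.64 ± 0.11 (limma adjusted p = 0.0239). That call was lost without cortex replicate 2 or 3, or without cerebellum replicate 1, 2 or 3 (adjusted p from 0.0855 to 0.113). The granule list as a whole had 39 probe sets, 4 of them members and all 4 higher in cerebellum, with a median 1X difference of -0.10. The GABA and glycine receptor list shared both Gabra6 members and added Glra1, a glycine receptor subunit (-1.13 at 1X, -0.11 ± 0.13 at 3X, limma adjusted p = 0.927). As a whole this receptor list did not lie on the cerebellar side. Of its 14 probe sets, 8 were higher in cortex and 6 higher in cerebellum at 1X, with a median of 0.05. Over all probe sets, 41.4% were higher in cerebellum and the median was 0.03.

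Purkinje cell and cerebellar interneuron genes gave 7 members higher in cerebellum and 1 higher in cortex (Npy) among 37 probe sets. Pvalb, the calcium buffer parvalbumin, read 4.35 and 6.11 at 1X, and 4.32, 4.43 and 4.38 against 5.83, 5.68 and 5.88 at 3X (-1.42 ± 0.11, limma adjusted p = 0.000125). It was also the only member on the skeletal muscle list. Nefh, the heavy neurofilament subunit of thick axons, read 4.66 and 6.85 at 1X, and 4.50, 4.34 and 4.38 against 5.52, 5.80 and 5.37 at 3X (-1.16 ± 0.11, limma adjusted p = 0.000533). Aldoc, the aldolase that marks stripes of Purkinje cells and also astrocytes, differed by -1.41 at 1X and by -0.78 ± 0.09 at 3X (limma adjusted p = 0.00129). The arrays of the regions did not overlap for any of these 3 genes.

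The calcium-binding protein calretinin, Calb2, found in granule cells and unipolar brush cells, differed by -1.93 at 1X but read 3.03, 2.65 and 2.98 against 3.06, 3.07 and 3.02 at 3X. Inpp5a, a phosphatase acting on inositol phosphates, differed by -1.39 at 1X and -0.24 ± 0.12 at 3X, and the Purkinje cell glutamate transporter Slc1a6 by -1.13 and -0.24 ± 0.12. None of these members of Calb2, Inpp5a, Slc1a6 and Glra1 was called (limma adjusted p from 0.61 to 0.927). A second Inpp5a probe set, at 2.32 in cortex and 2.90 in cerebellum at 1X, differed by -0.58 ± 0.12 at 3X without overlap (limma adjusted p = 0.0503). The mean of the gene's probe sets was called higher in cerebellum at 3X (-0.41 ± 0.08, limma adjusted p = 0.0479). Among neuronal members outside the Purkinje list, Nefm, the medium neurofilament subunit, differed by -1.50 at 1X and -1.13 ± 0.15 at 3X (limma adjusted p = 0.00343). Syt2, the fast calcium sensor common in hindbrain synapses, read 5.88 and 8.16 at 1X and differed by -0.88 ± 0.08 at 3X (limma adjusted p = 0.000557). Vamp1 differed by -2.29 and -0.36 ± 0.10 and was not called (limma adjusted p = 0.213).

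Myelin genes were among the members higher in cerebellum. Of 34 probe sets for oligodendrocytes and myelin, 12 were members, for 8 genes, all higher in cerebellum, and the median 1X difference was -0.91. Mbp, myelin basic protein, read 10.81 and 12.69 at 1X, a ratio of 3.68, and 8.29, 8.05 and 8.02 against 9.51, 9.67 and 9.27 at 3X (-1.36 ± 0.13, limma adjusted p = 0.000583). Septin4, a septin of the myelin and Bergmann glia, read 3.95 and 6.60 at 1X, and 3.53, 3.52 and 3.51 against 5.37, 5.48 and 5.42 at 3X (-1.90 ± 0.08, limma adjusted p = 1.22e-06). The 3 arrays of each region agreed closely and lay far apart between regions.

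Mobp, a structural protein of compact myelin, was reported by 4 members with 1X differences from -1.71 to -2.58. At 3X, 2 of them differed by -1.77 ± 0.19 and -1.56 ± 0.09 (limma adjusted p = 0.00103 and 1.98e-05), while the other 2 differed by -0.23 ± 0.13 and -0.30 ± 0.10 (limma adjusted p = 0.71 and 0.336). Mag, the myelin-associated glycoprotein, went further the same way: it read 6.63 and 8.57 at 1X, and 5.86, 6.05 and 6.16 against 6.28, 5.98 and 5.85 at 3X, with overlapping arrays. The remaining members on the list, Car2, Gatm, Evi2a and Qdpr, differed by -1.27 to -1.95 at 1X and were not called at 3X. Car2, a carbonic anhydrase of oligodendrocytes and also of red cells, came closest (-0.81 ± 0.17, limma adjusted p = 0.0657). It was called without cortex replicate 1 (adjusted p = 0.0341) or without liver replicate 3 (0.0353).

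**Figure D4:**
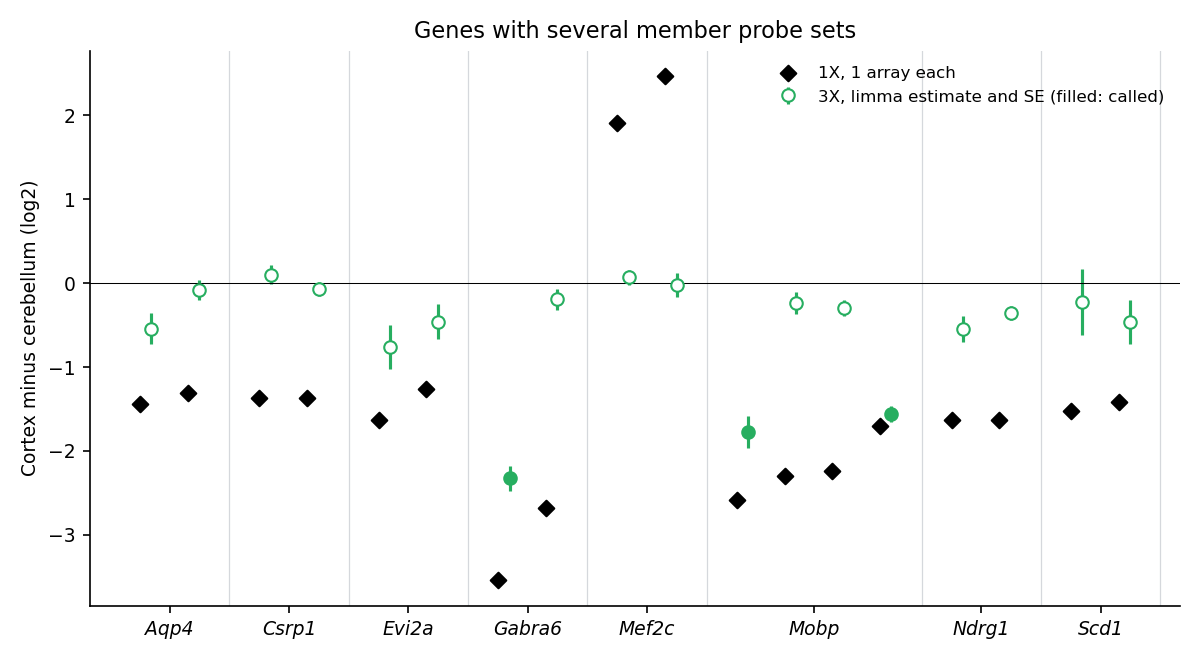
Cortex minus cerebellum (log2) for the 8 genes reported by several members, at 1X (black diamonds, 1 array each) and at 3X (green circles, limma estimate and SE from 3 arrays each; filled where called). All points at 1X are at least 1 unit from 0, as the rule required, and at 3X the probe sets of Gabra6 read -2.33 and -0.19 and those of Mobp range from -1.77 to -0.23.

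The member genes had 42 further probe sets, for 32 genes, which the rule did not take. Of these, 36 had the same sign at 1X as the members of their gene. At 3X, 4 were called in the members' direction (Gria2, Mef2c, Nsmf and Pvalb), none in the other and 38 were not called. Among the genes called through a member, Kalrn, Penk, Prkcb, Basp1, Myo5b, Mbp, Aldh1a1, Ank1, Syt2, Septin4, Clic4 and Nacc2 each had another probe set that was not called at 3X. For Septin4 it differed by -0.46 ± 0.10 (limma adjusted p = 0.0585), and for Mbp, at 3.31 and 3.17 at 1X, by 0.14 ± 0.10 (limma adjusted p = 0.827).

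Astrocyte and Bergmann glia genes had 4 members among 51 probe sets, all higher in cerebellum. Of the 51, 33 were higher in cerebellum and 18 higher in cortex at 1X, with a median difference of -0.24. Over all probe sets, 41.4% were higher in cerebellum and the median was 0.03. The calcium-binding protein S100b read 5.98 and 7.97 at 1X, and 5.54, 5.59 and 5.65 against 5.84, 5.90 and 6.32 at 3X, without overlap but by only -0.43 ± 0.12 (limma adjusted p = 0.203). The water channel Aqp4 was reported by 2 members, at -1.44 and -1.31 at 1X and -0.54 ± 0.18 and -0.08 ± 0.12 at 3X, neither called. Aldoc was the only astrocyte member that passed the 3X test.

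The 3 named genes with the largest differences of all, Gpx3, Miox and Kap, are best known from the kidney. Gpx3, the secreted glutathione peroxidase, read 2.51 in cortex and 6.73 in cerebellum at 1X, and 1.75, 2.08 and 1.51 against 2.72, 2.70 and 2.55 at 3X (-0.88 ± 0.13, limma adjusted p = 0.00677). These 3X signals of Gpx3 all lay below the array medians of 3.45 to 3.48. Miox, which breaks down myo-inositol in the proximal tubule, read 4.67 and 8.51 at 1X, and 4.79, 5.09 and 4.68 against 6.06, 5.42 and 5.65 at 3X (-0.86 ± 0.17, limma adjusted p = 0.0472). Kap, the kidney androgen-regulated protein, read 4.92 and 8.66 at 1X, and 4.92, 5.15 and 4.83 against 5.87, 6.13 and 6.03 at 3X (-1.04 ± 0.11, limma adjusted p = 0.00101). Kap and Miox were about as low in cortex as in liver, where they read 4.66 and 4.38 at 1X, and the 3X regions did not overlap for any of them. The call of Miox, close to the threshold, was lost without cortex replicate 1 or 3, cerebellum replicate 1 or 3, or liver replicate 1 or 2 (adjusted p from 0.0571 to 0.207).

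The wider kidney list, written with these genes already known, had 119 probe sets for 98 genes. Of these, 9 were members, for 8 genes, all higher in cerebellum: Fbp1, Gatm, Ndrg1, Klk1b1 and Keg1 joined the 3 above. Over the whole list, 79 probe sets (66.4%) were lower in cortex at 1X, against 41.4% of all probe sets. At 3X, 16 were called higher in cerebellum (13.4%) and none higher in cortex, against 0.628% and 0.435% of all probe sets. Without genes that stand on another list too, 104 probe sets remained, 8 of them members and 15 called higher in cerebellum. The mean log2 signal of the whole list was 3.39 in cortex, 3.81 in cerebellum and 4.26 in liver at 1X, and 3.53 to 3.59 on the cortex and 3.81 to 3.86 on the cerebellum 3X arrays. Of 8 defining renal markers, all were higher in cerebellum at 1X, against 41.4% of all probe sets. Kap and Miox among them are members, so their 1X difference follows from the rule. At 3X, 5 of the 8 were called. Besides Kap and Miox these were Umod, the uromodulin of the thick ascending limb (-0.88 ± 0.09, limma adjusted p = 0.000639), the phosphate transporter Slc34a1 (-0.95 ± 0.10, limma adjusted p = 0.00089) and Napsa, an aspartic protease (-3.43 ± 0.12, limma adjusted p = 3.26e-07). Aqp2, the collecting duct water channel, was at 2.78 in cortex and 2.79 in cerebellum at 1X. The part of kidney transcripts in the difference between the regions was not tested.

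Fbp1, a gluconeogenic enzyme of liver and kidney, was the kidney list member with the largest 3X difference. It read 11.11 in liver, 4.03 in cortex and 6.20 in cerebellum at 1X, and 4.64, 4.33 and 4.45 against 6.79, 6.90 and 7.50 at 3X (-2.59 ± 0.22, limma adjusted p = 0.000313). The abundant liver transcripts Alb (albumin) and Apoa1 were at 3.77 and 4.50 in cortex and at 3.25 and 4.28 in cerebellum at 1X, and Serpina1b was at 2.47 and 2.79 in these regions. Ndrg1, a stress-response gene with 2 members, Gatm of creatine synthesis, Klk1b1 and Keg1 differed by -1.10 to -1.95 at 1X and were not called at 3X.

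Of 34 blood cell probe sets, 3 were members, all higher in cerebellum: the globins Hba-a1 and Hbb-b2, and Car2. The list as a whole did not lie on that side, with 20 probe sets higher in cortex and 14 higher in cerebellum at 1X and a median difference of 0.05. Over all probe sets, 41.4% were higher in cerebellum at 1X and the median was 0.03. Hba-a1 read 7.51 and 9.19 at 1X, and 4.69, 4.36 and 4.77 against 5.79, 5.49 and 5.51 at 3X (-0.99 ± 0.14, limma adjusted p = 0.00502). Hbb-b2 differed by -1.53 at 1X and by -1.02 ± 0.25 at 3X (limma adjusted p = 0.109, and 0.00248 without liver replicate 3). Alas2, the heme synthesis enzyme of red cells, was at 6.06 and 6.84 at 1X and differed by -0.09 ± 0.10 at 3X (limma adjusted p = 0.914). The part of blood left in the tissue was not tested. With all members on the kidney, blood, choroid plexus and liver lists set aside, 51 members remained higher in cortex and 55 higher in cerebellum, of which 19 and 21 were called at 3X.

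On the cortical side, Ttr stood apart. Transthyretin carries thyroid hormone and is made in the brain by the choroid plexus and in the body by the liver. It read 11.57 in cortex, 9.01 in cerebellum and 13.03 in liver at 1X, and 11.001, 10.94 and 11.07 in cortex against 9.77, 9.58 and 9.85 in cerebellum at 3X. The regions did not overlap and differed by 1.27 ± 0.29, but the fit did not call it (limma adjusted p = 0.09). The fit shares its spread with the liver arrays, which read 10.59, 10.76 and 12.02, and without liver replicate 3 the adjusted p was 3.84e-05. The other choroid plexus markers measured did not follow Ttr: Kl was at 3.95 and 3.83 and the brighter Folr1 probe set at 6.36 and 6.37 at 1X. Ttr was the only member among 18 choroid plexus and 34 liver probe sets, and Ccn3, a matricellular protein (1.86 at 1X, 0.64 ± 0.13 at 3X, limma adjusted p = 0.0518), the only one among 39 probe sets for meninges and fibroblasts. Ccn3 passed without cortex replicate 2 (adjusted p = 0.0125) or liver replicate 3 (0.0262).

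**Figure D5:**
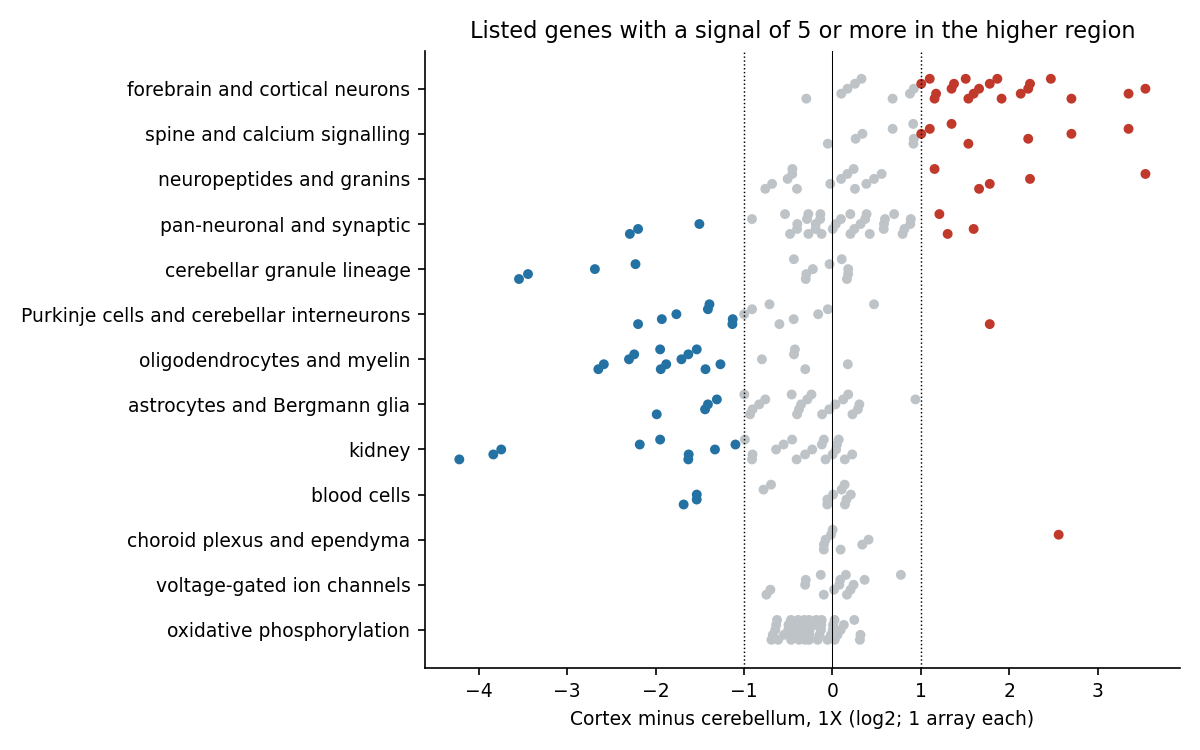
Cortex minus cerebellum at 1X (log2, 1 array each) for every probe set of 13 gene lists with a signal of 5 or more in the higher region; coloured points are members, grey points are not, and the dotted lines mark 1 unit. Forebrain, spine and neuropeptide members lie to the right, granule, myelin, astrocyte, kidney and blood members to the left, and the ion channel and oxidative phosphorylation lists hold no member.

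Of the 26 gene lists, 18 held members, and only the pan-neuronal and the Purkinje lists held members in both directions. The 8 lists without a member were voltage-gated ion channels, microglia and macrophages, endothelium and pericytes, pancreas and skin, hindbrain patterning genes, cytosolic ribosomal proteins, oxidative phosphorylation and housekeeping genes. Among these, oxidative phosphorylation had 70 of 102 probe sets below 0, at a median of -0.11, and microglia and macrophages had 25 of 30 above 0, at a median of 0.10. Over all probe sets, 5147 of 12422 lay below 0 and 7275 above, at a median of 0.03. No oxidative phosphorylation or microglia probe set was called at 3X, where 0.435% and 0.628% of all probe sets were called higher in cortex and in cerebellum. Members were 0.419% and 0.539% of all probe sets, so lists of 16 to 102 probe sets can hold none without standing apart. Ribosomal proteins had a median of 0.00 over 49 probe sets.

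A further 44 members, for 42 genes, had a gene symbol on none of the lists, 20 higher in cortex and 24 higher in cerebellum, and 12 were called at 3X, 6 in each direction. In cortex the called ones were St6galnac5, which adds sialic acid to gangliosides (1.89 at 1X, 0.88 ± 0.16 at 3X), Myo5b, a myosin that carries vesicles (1.81 and 0.58 ± 0.09), Sez6, Septin11, Mast3 and Rasgrp1. The last 4 fell outside the rule for naming and are named because they were called. The calls of St6galnac5 and Myo5b (limma adjusted p = 0.0299 and 0.0124) were lost without cortex replicate 1 or 3 or cerebellum replicate 2 or 3, with adjusted p-values of 0.0554 to 0.153, and that of St6galnac5 also without cerebellum replicate 1 (0.094). A second Myo5b probe set differed by 0.15 at 1X and 0.13 ± 0.15 at 3X (limma adjusted p = 0.92), and averaging the gene's probe sets ended the call (adjusted p = 0.191).

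In cerebellum the 6 were Aldh1a1, Syt2, Ank1, Clic4, Nacc2 and Capza1, the last 3 again named because they were called. Aldh1a1, which makes retinoic acid, read 10.62 in liver, 6.55 in cortex and 8.83 in cerebellum at 1X, and 7.39, 7.28 and 7.32 against 8.22, 8.64 and 8.63 at 3X (-1.17 ± 0.17, limma adjusted p = 0.00665). A second Aldh1a1 probe set read 6.64 in cortex and 6.50 in cerebellum at 1X and differed by 0.04 ± 0.12 at 3X (limma adjusted p = 0.991). Ank1, an ankyrin of red cell and neuronal membranes, differed by -2.06 and -1.19 ± 0.14 (limma adjusted p = 0.00216). The other 2 Ank1 probe sets differed by -0.84 and -0.59 at 1X and by 0.06 ± 0.12 and -0.27 ± 0.15 at 3X, and neither was called (limma adjusted p = 0.977 and 0.721). The called Ank1 probe set is 1 of 22 among the 119 members with a suffix, which marks probes that are shared with related transcripts or less specific. Of these 22, 9 were called at 3X, among them the called members of Penk, Olfm1, Basp1 and Pvalb. That share of 40.9% was close to the 37.1% called among the 97 members without a suffix.

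The last 10 members had no single gene symbol, 7 having none and 3 having several, and are given by probe set. The second largest difference of all, -4.03, belonged to 97519_at, at 6.41 in cortex, 10.43 in cerebellum and 8.60 in liver at 1X. It read 6.22, 6.13 and 6.02 against 7.45, 8.26 and 7.62 at 3X (-1.65 ± 0.18, limma adjusted p = 0.000995). Of these 10, 5 were called at 3X in the 1X direction, 1 higher in cortex and 4 higher in cerebellum.

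On the liver array, which the rule did not use, most members were lower than in either brain region. At 1X, liver lay below both regions for 92 members, between them for 15 and above both for 12, against 54.9% below and 30.0% above among the 3233 probe sets with 5 or more in the higher region. Of the 12 above both, 10 were higher in cerebellum than in cortex. Besides Aldh1a1, Fbp1 and Keg1 they included both Scd1 members, a fatty acid desaturase at 9.45 and 11.26 in liver, and Dbi, an acyl-CoA-binding protein at 11.72. In cortex they were Ttr and Ldha, a lactate dehydrogenase subunit. Scd1, Dbi and Ldha were named for their liver signal after it was seen.

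Averaged over the regions, the signal was lower at 3X than at 1X for 37 of 45 called members, with a median drop of 0.743, and for 69 of 74 not called, with a median drop of 1.29. Over all 3233 probe sets at 5 or more the median drop was 0.0075. The members were chosen for their 1X signal and difference, so these drops are a description. The sign turned at 3X for 7 members, none of them called: Cerk (0.16 ± 0.09), a Csrp1 probe set (0.10 ± 0.11), Mid1ip1, a Mef2c probe set, Plk2, Sst and a probe set without a symbol. From the other side, the 45 called members were 34.1% of the 132 probe sets called at 3X. Of the 87 other calls, 86 had the same sign at 1X, 20 were at least 1 unit apart at a signal below 5 and 67 were less than 1 unit apart.

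The thresholds cut through a continuous range. Just inside a difference of 1 lay Ppp3ca and Hspa2 (1.004 and 1.011) and Elovl5 and Psat1 (-1.003 and -1.017). Just outside lay Thra and Cdc42se2 (0.999 and 0.989) and Ppp1r17 and Ndrg2 (-0.997 and -0.996). At the level of 5, Mef2c and Septin11 (5.07 and 5.17) and Gatm and Ndrg1 (5.03 and 5.05) were just inside, and Ngef (4.91), 102296_at (4.83), Apod (4.95) and Smarcd2 (4.999) just outside.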

How the data were processed

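Total RNA of liver, cortex and cerebellum of 1 mouse was isolated with TRIzol and column-purified, labelled with biotin and hybridised to MG_U74Av2 arrays, per the labels' protocols. The values are the authors' deposited log2 signals per probe set, which the submitters' processing notes name as RMA output. Its version and the number of arrays per run are not stated in the sources at hand. Base 2 was inferred, since the maximum was 14.46 and natural logarithms of 16-bit scanner values end at 11.09. RMA makes no detection call, so folds are printed only where both regions reached 5. For arrays there is no read depth, and their number limits the precision.

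The 12488 probe sets less 66 controls left 12422, of which 10833 had 1 gene symbol, 396 several and 1193 none in the platform annotation. Symbols of 10817 were matched to RefSeq (GRCm38.p6). Tests on the 3X arrays used limma 3.58.1 (R 4.3.3; group means of 9 arrays, eBayes, two-sided, Benjamini-Hochberg over 12422). The call threshold was an adjusted p of 0.05. The script was tested on simulated data. Genes were named by rule: the 15 largest 1X differences in each direction, up to 6 members per list and direction, and the 2 neighbours of each threshold on either side. Other genes (among them Clic4, Nacc2, Slc1a6, Qdpr, Klk1b1, Keg1, Csrp1, Cerk, Mid1ip1 and Nsmf) were named after their values were seen. A gene was represented by its member with the largest 1X difference. Members, lists and rules were chosen with earlier results of these data known. Alternatives covered normalization, level and difference minimums, suffixed probe sets, gene means, the limma settings, the arrays in the fit and a replicate block. Labels share replicate numbers across tissues, but nothing in them says that a number marks a shared batch.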

Additional observations from a re-analysis of the deposited data

How the results depend on the processing

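The member counts of 52 and 67, the member calls of 19 and 26, and the 132 calls in all stayed within 1.5 times of these values under quantile normalization, median centring, probe sets without a suffix, level minimums of 4 and 6, probe sets above the median level, eBayes with trend and robust settings, and the replicate block. Averaging the probe sets of a gene changed the unit to genes and left 40 higher in cerebellum, where the 67 members had reported 53 genes. Dropping the level minimum gave 103 probe sets higher in cerebellum. Asking for 1.5 log2 units left 28 and 37 members, with 12 called in cortex. With only the 6 cortex and cerebellum arrays in the fit, there were 262 calls, and the cause was not tested. Leaving out each 3X array in turn gave 82 to 250 calls over all probe sets, 13 to 25 called members higher in cortex and 21 to 33 higher in cerebellum. The extremes of the calls in all came without cerebellum replicate 2 (82) or 3 (86) and without liver replicate 3 (250). With a replicate block there were 170 calls, 22 and 31 of them members. To look for pairing, the tissue mean of each probe set was subtracted from the 3X arrays, and the remaining deviations were correlated between tissues. These correlations ran from -0.0991 to 0.342 for same-numbered arrays, and from -0.359 to 0.248 for differently numbered arrays. The deviations of the replicate 3 arrays correlated in every pair of tissues, at 0.342, 0.294 and 0.297. The main fit did not take the numbers as pairs, and whether the replicate 3 arrays shared a processing step was not tested. No named gene changed its direction past the threshold under any alternative run. The set without kidney, blood, choroid plexus and liver genes was chosen after seeing the data.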

Other observations

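A further 62 probe sets lay at least 1 log2 unit apart at 1X but below a signal of 5 in both regions, 26 higher in cortex and 36 higher in cerebellum. At 3X, 7 and 13 of them were called in the same direction by limma and none in the other, where 0.435% and 0.628% of all probe sets were called in these directions. They were chosen by the 1X difference, which is therefore a description, and the genes named here were picked after their values were seen. In cortex they included classical markers of its excitatory neurons. Nrgn, neurogranin, which binds calmodulin in spines, read 4.68 and 2.29 at 1X and differed by 1.77 ± 0.13 at 3X (SE, 3 arrays each; limma adjusted p = 7.75e-05). Tbr1, a transcription factor of deep-layer neurons, read 3.73 and 1.81 and differed by 0.88 ± 0.13 (limma adjusted p = 0.00851). Icam5, an adhesion molecule of forebrain dendrites, read 4.37 and 2.85 and differed by 1.37 ± 0.15 (limma adjusted p = 0.000995). A probe set of Camk2a, a calmodulin-dependent kinase of excitatory synapses, read 2.97 and 1.54 but was not called (0.36 ± 0.12, limma adjusted p = 0.346).

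In cerebellum, Cbln1, the synapse organiser released by granule cells, read 1.99 in cortex and 3.96 in cerebellum at 1X and differed by -0.82 ± 0.11 at 3X (limma adjusted p = 0.0035). Neurod1, a transcription factor of granule cells, read 2.65 and 4.15 at 1X. Its 3X arrays were brighter, at 4.35, 3.76 and 4.46 in cortex against 6.10, 6.39 and 5.66 in cerebellum, a difference of -1.86 ± 0.21 (limma adjusted p = 0.00158). En2, which patterns the cerebellum, differed by -1.46 at 1X and -0.67 ± 0.12 at 3X (limma adjusted p = 0.0281). Mog, a myelin protein, differed by -1.60 and -0.40 ± 0.11 and was not called (limma adjusted p = 0.18). The renal genes Fxyd2 and Hao2 stood here too, with 3X differences of -0.95 ± 0.10 and -1.97 ± 0.25 (limma adjusted p = 0.00099 and 0.0028). Fxyd2 read 2.61 in cortex and 4.27 in cerebellum at 1X. Hao2 read 0.15 and 1.78 at 1X, and 0.56, 0.46 and 0.41 against 2.37, 2.34 and 2.62 at 3X, all below the array medians. It was brightest in liver, at 4.19 at 1X.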
